A study of Homo sapiens with 12 samples.

Results

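The genes described here are 31 p53 target and stress genes chosen by symbol, out of 28512 genes in the files, and all 31 passed the minimum set for a test, a mean of 10 across the libraries. Their RNA was followed in SUM159, MDAMB231 and HCC1806, human triple-negative breast cancer cell lines. The p53 pathway answers DNA damage and other stress by raising the RNA of a set of target genes, whose products stop the cell cycle, repair DNA, adjust metabolism or start cell death. Several of these products in turn hold the pathway down, chief among them the ubiquitin ligase MDM2. Many of the same genes are also driven by other stress factors, so their RNA can move without the p53 pathway. The activity of p53 was not measured here, and changes in these genes are not read as changes in it.

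Each line was treated for 72 h with JQ1, with GSK2801, with both, or with the vehicle DMSO. JQ1 blocks the bromodomains of the BET proteins, which read acetylated histones at active genes, and GSK2801 blocks those of BAZ2A and BAZ2B. JQ1 was used at 300 nM in SUM159, 100 nM in MDAMB231 and 500 nM in HCC1806, and GSK2801 at 10 µM in every line. HCC1806 was also grown in RPMI 1640 with 10% serum, where SUM159 and MDAMB231 had DMEM/F12 with 5% serum, insulin and hydrocortisone, so that effects of the line cannot be told apart from those of its medium or of the JQ1 dose. There was 1 polyadenylated RNA library per line and treatment, 12 in all, and the replicates of a treatment are therefore the 3 lines.

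The 12 libraries held 24200000 to 46800000 estimated reads. The values are estimated read counts that the authors scaled to the same upper quartile in every library, so a value is a level relative to the other genes of its library, and levels of different genes are not compared. The labels were checked on genes outside the set. HEXIM1, a widely used marker of BET inhibition, had 7082 in SUM159, 6483 in MDAMB231 and 6269.6 in HCC1806 with JQ1 and 9756, 8933 and 8566 with the combination, against 3029, 3119 and 2532 with GSK2801 and 2928, 3018 and 2510.0 with DMSO. The epithelial cadherin CDH1 stood between 14154 and 27121 in HCC1806 and between 1.06 and 33.2 in the other lines, whereas the mesenchymal filament gene VIM stood between 46.9 and 173 in HCC1806 and at 90380.3 or above in the others. The hormone receptor genes ESR1 and PGR were at 138 or below in every library, while the growth factor receptor gene ERBB2 stood between 1749 and 6456. A list of 8 markers of blood, endothelial, fibroblast and fat cells summed to 5.7 to 53 in the libraries of MDAMB231 and HCC1806. In SUM159 the list summed to 538 with JQ1, 614 with the combination, 3070 with GSK2801 and 2724 with DMSO, through PECAM1, PDGFRB, DCN and PTPRC. The part of this shift in the SUM159 values of the p53 target genes was not tested.

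The response elements of p53 target genes are made of paired decamers. RefSeq promoter windows of GRCh38.p14, reaching from 250 bases before a gene's start to 50 bases after it, were available for 26 of the 31 genes, and both strands were searched for the p53 decamer of the consensus response element. It was found in 7 of the 39 windows of these genes (17.9%) and in 6.63% of all 35116 windows. The stretches that hold it are printed 5′ to 3′ on the gene's strand, with the decamer in capitals, because they include genes that fell with JQ1 (AEN, FAS and EI24) and genes whose JQ1 effect differed between lines (DDB2, FDXR and SESN1). A match describes the letters only.
AEN, 15:88621296-88621325, plus strand: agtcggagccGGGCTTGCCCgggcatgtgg
FAS, 10:88991299-88991328, plus strand: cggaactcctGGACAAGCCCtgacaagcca
EI24, 11:125569457-125569486, plus strand: cgtgcggcccGGGCATGCCCagtgcgggcg
DDB2, 11:47214975-47215002, plus strand: gtttGAACAAGCCCtGGGCATGTTTggc
FDXR, 17:74872986-74873015, minus strand: gggcaggagcGGGCTTGCCCtgcggagcag
SESN1, 6:109009018-109009047, minus strand: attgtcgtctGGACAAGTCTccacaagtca
PLK2, 5:58460199-58460228, minus strand: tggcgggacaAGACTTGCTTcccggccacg
DDB2 was the one gene among these with a pair of decamers, set 1 base apart.

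With JQ1 the 31 genes did not move as a block: 7 rose and 4 fell against DMSO. These 11 genes are 35.5% of the set, beside 22.6% of all 14232 genes tested, and the median log2 change was 0.06 over the 31 genes and −0.08 over all tested genes. Among all tested genes 9.52% rose and 13.1% fell. The members were chosen with earlier results of these data known, so a share above that of all tested genes is no independent evidence. Among genes with a mean of at least 50, JQ1 called 12 of the 31 genes and 3213 of 12396 tested. With the combination 9 of the 31 genes rose and 6 fell, 48.4% of the set beside 34.8% of all tested genes (15% higher, 19.8% lower), with medians of 0.11 and −0.09. The changes are mean log2 differences over the 3 lines, tested with limma with the line as a block. Their standard error (SE) comes from a residual spread pooled over all 12 libraries. It is therefore not the spread of the 3 line differences of that comparison. Adjusted p-values are Benjamini-Hochberg values over all tested genes at a threshold of 0.05. The JQ1 and combination comparisons share their DMSO libraries and are given side by side. Each of the 11 JQ1 calls was lost without at least 1 of the lines, and 8 members were called without SUM159, 3 without MDAMB231 and 4 without HCC1806. Of the 15 combination calls 7 held without each line (BTG1, TP53I3, XPC, RRM2B, FAS, AEN and PERP), and 9 members were called without HCC1806. In bulk RNA a change in the share of cells that hold a transcript and a change in its amount per cell cannot be told apart.

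**Figure D1:**
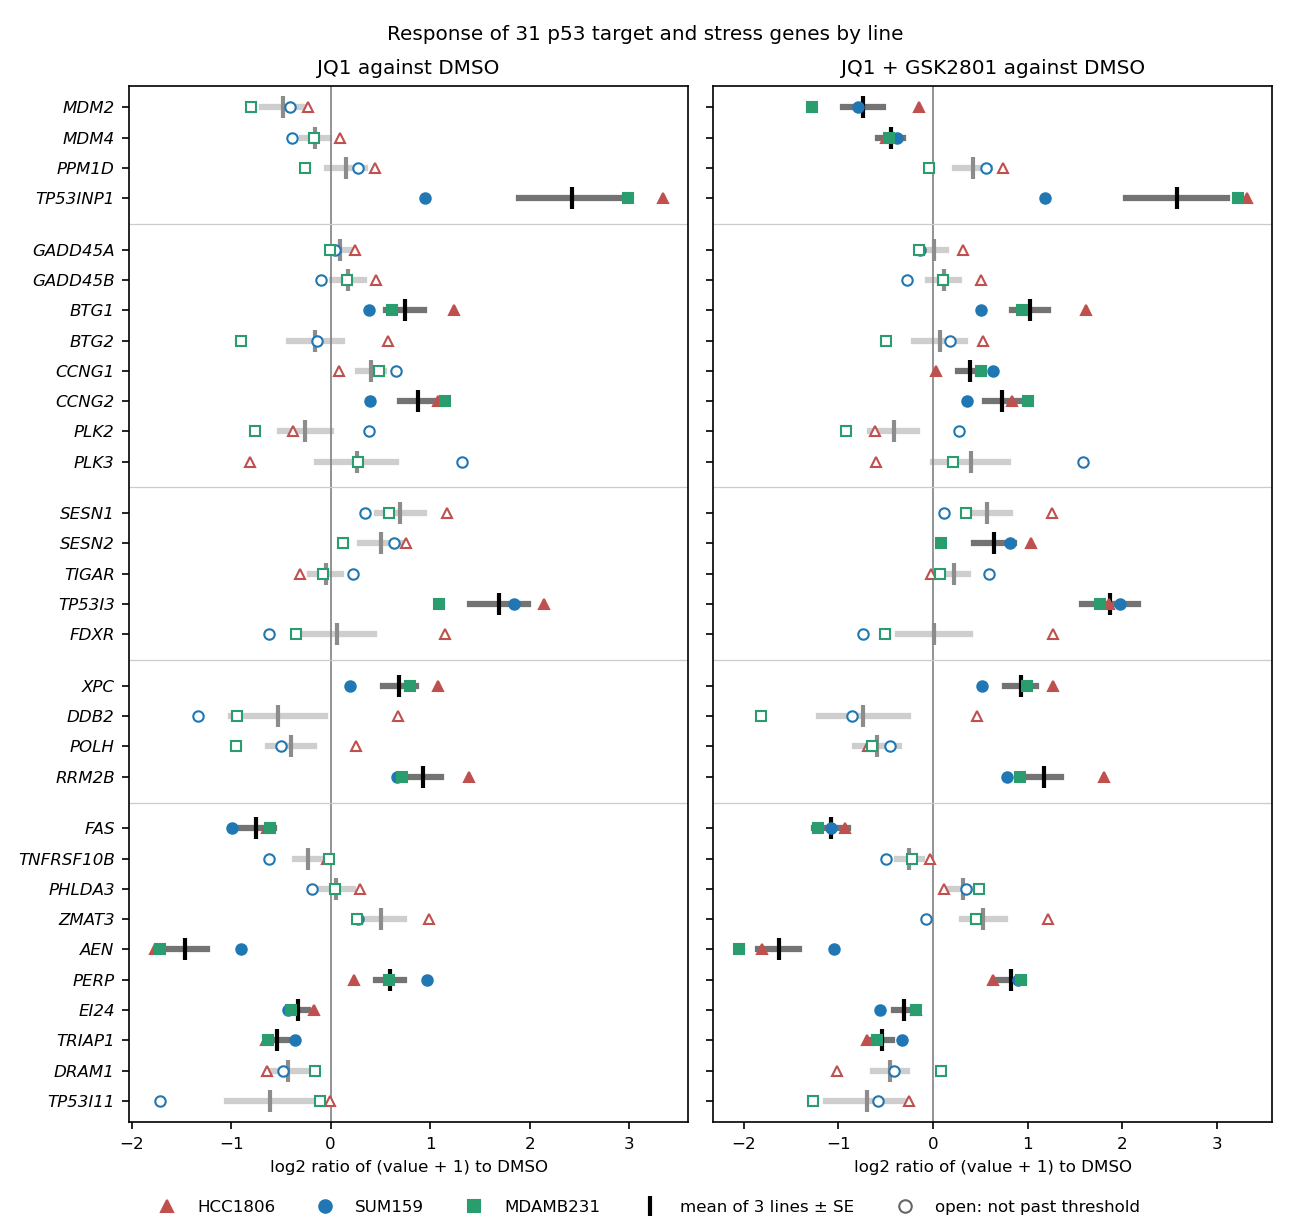
Log2 ratio of (value + 1) to the DMSO library of the same line for the 31 genes, with JQ1 (left) and with JQ1 plus GSK2801 (right). Symbols are lines, bars the mean of 3 lines ± SE, and filled symbols genes past the adjusted threshold. The SE is pooled over all 12 libraries and is not the spread of the 3 symbols. TP53INP1 (2.43 with JQ1) and TP53I3 (1.69) lie farthest right and AEN (−1.46) farthest left. Between them some genes have all 3 lines on the same side of 0, such as RRM2B (0.93) and FAS (−0.75). Others, such as DDB2 and PLK3, have lines on both sides of it.

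Among the 4 regulators of the pathway, TP53INP1 rose with JQ1 and with the combination, and MDM2 and MDM4 fell with the combination. TP53INP1 encodes a stress-induced nuclear protein that promotes cell death and autophagy. TP53INP1 had 281 in SUM159, 996 in MDAMB231 and 743 in HCC1806 with JQ1 and 331, 1174 and 732 with the combination, against 199, 119 and 94.9 with GSK2801 and 145, 124 and 72.6 with DMSO. In each line both libraries with JQ1 stood above both without it, by far the least in SUM159. The rise was 5.37-fold with JQ1 (log2 2.43 ± 0.53, limma adjusted p = 0.0132) and 5.96-fold with the combination (2.58 ± 0.53, 0.00635), and the JQ1 call was lost without MDAMB231 (adjusted p = 0.103) or HCC1806 (0.145), as was the combination call (0.0697 and 0.0812).

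MDM2, on chromosome 12 (68808176 to 68850686, plus strand, hg38), encodes the ubiquitin ligase that holds the pathway down. MDM2 had 811 in SUM159, 643 in MDAMB231 and 582 in HCC1806 with JQ1 and 620.5, 460.0 and 616 with the combination, against 824, 1074 and 666 with GSK2801 and 1074, 1119 and 682 with DMSO. It was lower in both JQ1 libraries of every line, and the 4 HCC1806 values lay close together. The change was −0.48 ± 0.21 with JQ1 and did not pass (limma adjusted p = 0.137), and MDM2 fell by 0.74 ± 0.21 with the combination (0.0257), a call lost without SUM159 (0.145) or without MDAMB231, where the change was −0.47 (0.117). Some MDM2 exons overlap those of CPM on the other strand, and the counting strand is not given in the sources used here. Its paralog MDM4, another inhibitor of the pathway, had 495 in SUM159, 555 in MDAMB231 and 601 in HCC1806 with JQ1 and 496, 453 and 398 with the combination, against 653, 763 and 669 with GSK2801 and 646, 624 and 563 with DMSO. MDM4 fell by 0.45 ± 0.14 with the combination (limma adjusted p = 0.0318) and by 0.63 ± 0.14 in the combination against GSK2801 (0.00947), while JQ1 alone gave −0.15 ± 0.14 (0.447). The combination call against DMSO was lost without any 1 of the lines (0.0712 to 0.141), and the one against GSK2801 without MDAMB231 (0.0868) or HCC1806 (0.0658). PPM1D, which encodes a phosphatase that shuts off p53 signalling, ranged from 325 to 1078 over the 12 libraries and gave 0.15 ± 0.19 with JQ1 and 0.42 ± 0.19 with the combination; neither passed, but the combination value was 0.65 and passed without MDAMB231 (limma adjusted p = 0.0239).

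Of the 8 cell cycle and growth arrest genes, BTG1 and CCNG2 rose with JQ1, and CCNG1 joined them with the combination; none fell. BTG1, on chromosome 12 (92140278 to 92145897, minus strand), encodes an antiproliferative partner of the mRNA deadenylase complex. BTG1 had 2286 in SUM159, 3059 in MDAMB231 and 2539.8 in HCC1806 with JQ1 and 2498, 3852 and 3306 with the combination, against 1694, 2092 and 1201 with GSK2801 and 1756, 2000.0 and 1077 with DMSO. The libraries with JQ1 were above those without it in every line, and HCC1806 had both the lowest DMSO value and the widest ratio. The differences between paralogs were not tested. BTG1 rose 1.67-fold with JQ1 (0.74 ± 0.19, limma adjusted p = 0.0249) and 2.03-fold with the combination (1.02 ± 0.19, 0.00419); the JQ1 call was lost without MDAMB231 (0.116) or HCC1806 (0.0865). BTG1 exons overlap a noncoding gene on the other strand. Its paralog BTG2 had 648 in SUM159, 21.0 in MDAMB231 and 643 in HCC1806 with JQ1 and 807, 28.0 and 625 with the combination, against 924, 29.2 and 459 with GSK2801 and 714, 39.9 and 432 with DMSO. BTG2 thus stood higher with JQ1 in HCC1806 and lower in MDAMB231, where its level was low throughout, and did not pass (−0.15 ± 0.27 with JQ1 and 0.07 ± 0.27 with the combination).

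The cyclin G genes encode unconventional cyclins, of which CCNG1 brings the phosphatase PP2A to MDM2 and CCNG2 slows the cell cycle. CCNG2 had 1454 in SUM159, 1254 in MDAMB231 and 2006 in HCC1806 with JQ1 and 1412, 1129.8 and 1687 with the combination, against 1215, 568 and 1114 with GSK2801 and 1103, 564 and 946 with DMSO. It rose 1.84-fold with JQ1 (0.88 ± 0.18, limma adjusted p = 0.00936) and 1.66-fold with the combination (0.73 ± 0.18, 0.0123), and both calls were lost without MDAMB231 (0.0614 and 0.0736) or HCC1806 (0.122 and 0.114). CCNG1 had 9208 in SUM159, 3759.7 in MDAMB231 and 1778 in HCC1806 with JQ1 and 9041, 3816 and 1725 with the combination, against 6755, 2749 and 1744 with GSK2801 and 5829, 2677 and 1682 with DMSO. HCC1806 hardly moved. CCNG1 lay at the threshold, with 0.41 ± 0.13 for JQ1 (limma adjusted p = 0.0508) and a rise of 0.39 ± 0.13 with the combination (0.0432), lost without SUM159 (0.277) or MDAMB231 (0.209). The stress sensors GADD45A and GADD45B and the polo-like kinases PLK2 and PLK3 did not pass. GADD45A gave 0.10 ± 0.12 with JQ1, the value nearest to 0 among these 4 genes, and its 12 values ran from 755 to 1934. GADD45B gave 0.18 ± 0.16, PLK2 −0.25 ± 0.25 and PLK3 0.26 ± 0.40, and in each of the last 3 the lines pointed different ways. Without SUM159 PLK2 passed as lower, with −0.57 for JQ1 (limma adjusted p = 0.0487) and −0.76 for the combination (0.0173), against −0.42 ± 0.25 for the combination with all 3 lines.

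**Figure D2:**
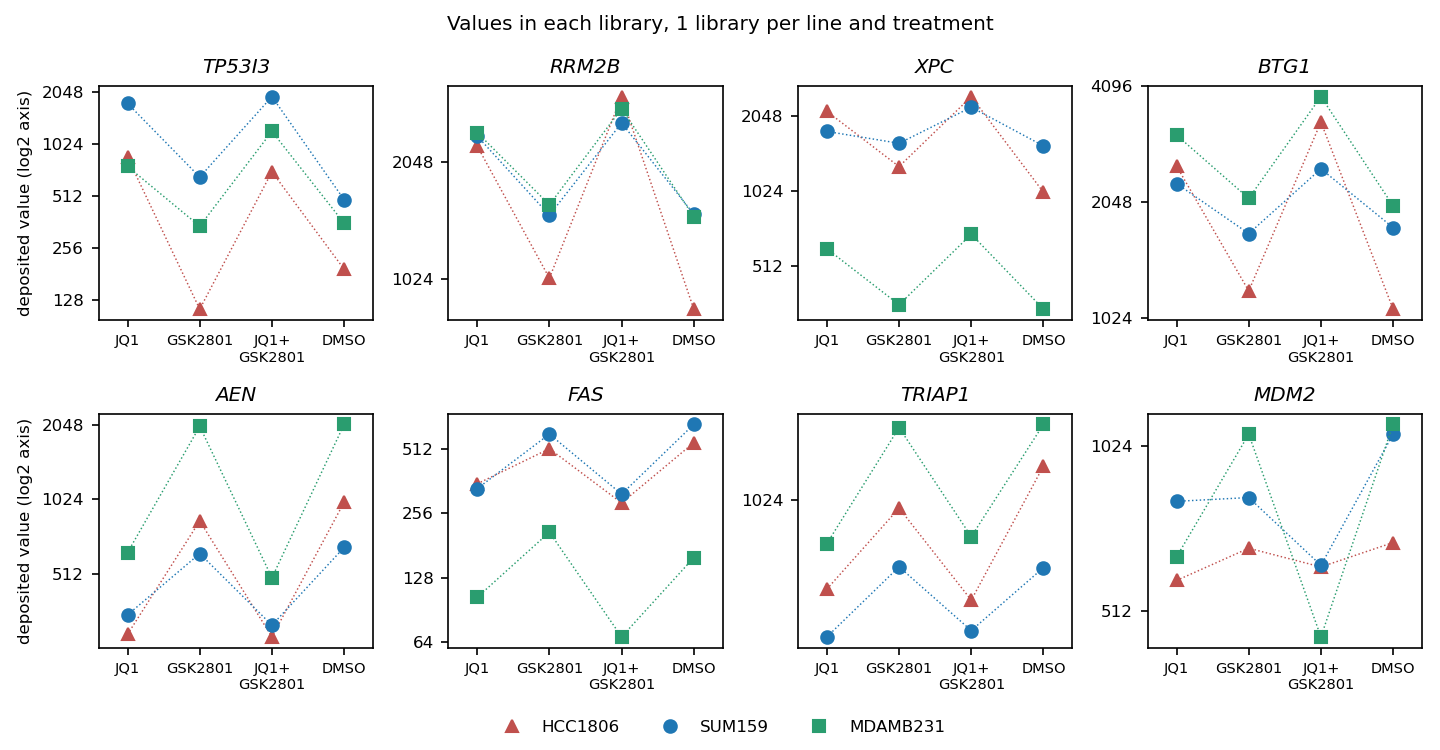
Deposited values (log2 axis) of 8 of the genes in each of the 12 libraries, with JQ1, GSK2801, JQ1 plus GSK2801 and DMSO from left to right; symbols are lines, and dotted lines only join the libraries of a line. TP53I3, RRM2B, XPC and BTG1 are high in the JQ1 and combination columns, AEN, FAS and TRIAP1 are low there, and MDM2 drops little in HCC1806.

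Among the 5 stress metabolism genes, TP53I3 rose with JQ1, TP53I3 and SESN2 rose with the combination, and none fell. TP53I3, on chromosome 2 (24077433 to 24085861, minus strand), encodes a quinone oxidoreductase linked to reactive oxygen species. TP53I3 had 1755 in SUM159, 759 in MDAMB231 and 856 in HCC1806 with JQ1 and 1921, 1210.4 and 707 with the combination, against 659, 343 and 114 with GSK2801 and 488, 356 and 193 with DMSO. Every library with JQ1 was above every library without it from the same line. The rise was 3.23-fold with JQ1 (1.69 ± 0.30, limma adjusted p = 0.00558), 3.65-fold with the combination (1.87 ± 0.30, 0.00194) and 3.99-fold in the combination against GSK2801 (0.00196). The JQ1 call was lost without SUM159 (0.0559), and the other 2 held without each line. TP53I3 exons overlap those of FAM228B on the other strand.

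The sestrins restrain the growth kinase mTORC1 under stress. SESN2 had 607 in SUM159, 498 in MDAMB231 and 290.4 in HCC1806 with JQ1 and 689, 484 and 353 with the combination, against 413, 576 and 267 with GSK2801 and 390.2, 457 and 172 with DMSO. In MDAMB231 both libraries with JQ1 lay between the DMSO and GSK2801 values. SESN2 rose 1.56-fold with the combination (0.65 ± 0.21, limma adjusted p = 0.0406), a call lost without SUM159 (0.17) or HCC1806 (0.269), and gave 0.51 ± 0.21 with JQ1 (0.113). SESN1 had 1539.9 in SUM159, 270.2 in MDAMB231 and 519 in HCC1806 with JQ1 and 1315, 229 and 553 with the combination, against 1559.7, 207 and 280.1 with GSK2801 and 1212, 180.1 and 229.6 with DMSO. It did not pass with JQ1 (0.70 ± 0.23, limma adjusted p = 0.0603) or with the combination (0.58 ± 0.23, 0.0851), and the larger ratios were those of HCC1806. TIGAR, which lowers glycolytic flux, gave −0.05 ± 0.15 with JQ1, and FDXR, a mitochondrial ferredoxin reductase, gave 0.06 ± 0.38; neither passed.

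In DNA repair and nucleotide supply, XPC and RRM2B rose and DDB2 and POLH did not pass. RRM2B encodes the p53-inducible small subunit of ribonucleotide reductase, which makes deoxynucleotides for repair outside S phase. RRM2B had 2383 in SUM159, 2433 in MDAMB231 and 2246 in HCC1806 with JQ1 and 2575, 2802 and 3009 with the combination, against 1492, 1586 and 1028 with GSK2801 and 1501, 1479 and 856 with DMSO. The 6 libraries with JQ1 were all above the 6 without it, across lines as well as within them. RRM2B rose 1.90-fold with JQ1 (0.93 ± 0.18, limma adjusted p = 0.00943) and 2.25-fold with the combination (1.17 ± 0.18, 0.00195); the first call was lost without MDAMB231 (0.056), the second held without each line. XPC, on chromosome 3 (14145147 to 14178783, minus strand), encodes the sensor of distorted DNA in nucleotide excision repair. XPC had 1779 in SUM159, 603 in MDAMB231 and 2141 in HCC1806 with JQ1 and 2224, 689 and 2452 with the combination, against 1594, 359.9 and 1286 with GSK2801 and 1556, 346 and 1015 with DMSO. SUM159 moved least with JQ1 alone. XPC rose 1.61-fold with JQ1 (0.69 ± 0.17, limma adjusted p = 0.0186) and 1.90-fold with the combination (0.93 ± 0.17, 0.00341), and the JQ1 call was lost without MDAMB231 (0.123) or HCC1806 (0.169). XPC exons overlap those of LSM3 on the other strand.

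DDB2 acts in the same repair pathway, where it finds damage made by ultraviolet light. DDB2 had 126 in SUM159, 183 in MDAMB231 and 1444 in HCC1806 with JQ1 and 176, 98.7 and 1249 with the combination, against 308, 401 and 903 with GSK2801 and 319, 350.4 and 905 with DMSO. It stood higher with JQ1 in HCC1806 and lower in the other lines, and the mean change of −0.53 ± 0.47 with JQ1 did not pass (limma adjusted p = 0.443). POLH, a polymerase that copies past damaged bases, gave −0.40 ± 0.23 with JQ1 and −0.59 ± 0.23 with the combination and did not pass either.

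The 10 death, survival and membrane genes held all 4 of the falls with JQ1, in AEN, FAS, EI24 and TRIAP1, and 1 rise, in PERP; the same 5 genes were called with the combination. AEN, on chromosome 15 (88621296 to 88632282, plus strand), encodes a nuclease that promotes apoptosis. AEN had 350.4 in SUM159, 625 in MDAMB231 and 293 in HCC1806 with JQ1 and 318, 495 and 286 with the combination, against 619, 2019 and 839 with GSK2801 and 656, 2057 and 999 with DMSO. Both JQ1 libraries were the low ones in every line. AEN was 2.75-fold lower with JQ1 (−1.46 ± 0.22, limma adjusted p = 0.00313) and 3.10-fold lower with the combination (−1.63 ± 0.22, 0.000916); the JQ1 call was lost without HCC1806 (0.0671) and the combination call held without each line.

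FAS, on chromosome 10 (88990582 to 89015785, plus strand), encodes the death receptor for FAS ligand. FAS had 333 in SUM159, 104 in MDAMB231 and 351 in HCC1806 with JQ1 and 314, 67.9 and 286 with the combination, against 598, 209 and 512 with GSK2801 and 664, 159 and 546 with DMSO. In each line the combination library was the lowest of the 4. FAS was 1.68-fold lower with JQ1 (−0.75 ± 0.18, limma adjusted p = 0.0185) and 2.11-fold lower with the combination (−1.07 ± 0.18, 0.00249), and the JQ1 call was lost without SUM159 (0.14) or HCC1806 (0.0995). FAS exons overlap those of ACTA2, a smooth muscle actin gene, on the other strand. TNFRSF10B, the other death receptor of the set, binds the ligand TRAIL. TNFRSF10B had 3408 in SUM159, 3385 in MDAMB231 and 2164 in HCC1806 with JQ1 and 3718, 2938 and 2167 with the combination, against 5559, 3587 and 2581 with GSK2801 and 5250.1, 3420.4 and 2218 with DMSO. The JQ1 libraries were the lower ones in every line, by little in MDAMB231 and HCC1806, and the change did not pass (−0.23 ± 0.13 with JQ1, −0.25 ± 0.13 with the combination).

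TRIAP1, on chromosome 12 (120443961 to 120446412, minus strand), encodes a mitochondrial lipid transfer partner that protects cells from apoptosis. TRIAP1 had 623 in SUM159, 875 in MDAMB231 and 741 in HCC1806 with JQ1 and 638, 897 and 712 with the combination, against 804, 1332 and 995 with GSK2801 and 802, 1348 and 1159 with DMSO. The 2 JQ1 libraries of a line differed little from each other and were below the 2 without JQ1. TRIAP1 fell by 0.54 ± 0.11 with JQ1 (limma adjusted p = 0.00873) and by 0.54 ± 0.11 with the combination (0.00524); the JQ1 call was lost without MDAMB231 (0.0728) or HCC1806 (0.0893) and the combination call without HCC1806 (0.0671). EI24, an endoplasmic reticulum protein needed for autophagy, had 3649.9 in SUM159, 3132 in MDAMB231 and 9222 in HCC1806 with JQ1 and 3319, 3653 and 9128 with the combination, against 4726, 3878 and 11008 with GSK2801 and 4909, 4136 and 10364 with DMSO. EI24 fell by 0.33 ± 0.10 with JQ1 (limma adjusted p = 0.0464) and by 0.31 ± 0.10 with the combination (0.044), the smallest called changes of the set, lost without any 1 of the lines (combination change without SUM159 −0.18) and under TMM rescaling (0.0607 with JQ1 and 0.0599 with the combination).

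PERP, on chromosome 6 (138088505 to 138107511, minus strand), encodes a membrane protein of desmosomes and was the riser of its role. PERP had 5842 in SUM159, 3446 in MDAMB231 and 33513 in HCC1806 with JQ1 and 5586, 4379 and 44185 with the combination, against 4004, 2494 and 35067 with GSK2801 and 2985, 2294 and 28518 with DMSO. HCC1806, the line with epithelial markers, stood far above the others in all 4 libraries, and there the JQ1 library was below the GSK2801 library. PERP rose 1.51-fold with JQ1 (0.60 ± 0.14, limma adjusted p = 0.0181) and 1.77-fold with the combination (0.82 ± 0.14, 0.00293), and the JQ1 call was lost without SUM159 (0.158) or MDAMB231 (0.089). The epithelial list of 4 markers summed in HCC1806 to 125924 with JQ1, 172559 with the combination, 81565 with GSK2801 and 77621 with DMSO, and its part in the PERP values was not tested. PHLDA3, a repressor of the survival kinase AKT, had 593 in SUM159, 126 in MDAMB231 and 1211 in HCC1806 with JQ1 and 859.8, 171 and 1065 with the combination, against 1011, 158 and 1126 with GSK2801 and 676, 122 and 984 with DMSO. Neither its change with JQ1 (0.05 ± 0.17) nor those of the RNA-binding protein gene ZMAT3 (0.51 ± 0.23), the lysosomal autophagy gene DRAM1 (−0.42 ± 0.18) and TP53I11 (−0.61 ± 0.43) passed. Without MDAMB231 DRAM1 passed with the combination (−0.71, limma adjusted p = 0.0317), against −0.45 ± 0.18 with all 3 lines.

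GSK2801 alone called none of the 31 genes, and none of the 14232 genes tested (0%). No member had an unadjusted p under 0.05 there, against 161 of all tested genes, and the fitted changes ran from −0.46 in PLK2 to 0.38 in PHLDA3. A fit of only the 6 libraries compared also called none, but had 7 members and 1882 of all tested genes at an unadjusted p under 0.05. Adding GSK2801 to JQ1 called no gene either (0%), with no member and 1031 of all tested genes at an unadjusted p under 0.05 and changes from −0.33 in FAS to 0.28 in BTG1. With only those 6 libraries it again called none, with 5 members and 2597 of all tested genes at an unadjusted p under 0.05. The departure from additivity, the difference between the combination effect and the summed single effects, called none (0%). There 171 genes had an unadjusted p under 0.05, and 1 of them, MDM4, was a member (−0.48 ± 0.19, unadjusted p = 0.0342). The SEs of the members lay between 0.10 and 0.53 in the pairwise contrasts. They come from the spread shared by all 12 libraries, to which JQ1 responses that differ between lines add. The p-values of the GSK2801 contrasts may therefore be too large, and small effects of GSK2801 would not be detectable in this fit.

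The effect of JQ1 in the presence of GSK2801 came from 6 libraries that the comparison of JQ1 with DMSO does not use, grown from the same lines and sharing the estimate of the spread. The combination against GSK2801 called 11 of the 31 genes (35.5%), 7 higher and 4 lower, beside 29% of all tested genes (11.8% higher, 17.2% lower). Of these 11 genes 10 were among the 11 called with JQ1 against DMSO, 90.9% of each list. Over all tested genes 2802 were called in both contrasts, 67.8% of the 4132 called with GSK2801 present and 86.9% of the 3223 called against DMSO. Without MDAMB231 6 members were called and without HCC1806 7. Fits of only the 6 libraries compared called 1 member here and 4 with JQ1 against DMSO, beside 300 and 755 of all tested genes. MDM4 was called with GSK2801 present only, and EI24 (−0.29 ± 0.10, limma adjusted p = 0.0625) with GSK2801 absent only; neither difference passed a test, as no departure from additivity did. With GSK2801 present AEN was 2.85-fold lower, FAS 2.18-fold lower, RRM2B 2.07-fold higher and TP53I3 3.99-fold higher, and these 4 calls held without each line.

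Read library by library, 12 of the 31 genes (38.7%) had both libraries with JQ1 on the same side of both without it in each of the 3 lines, beside 32.8% of all tested genes. The 6 on the high side were TP53INP1, BTG1, CCNG2, TP53I3, XPC and RRM2B (13.2% of all tested genes were on that side). The 6 on the low side were MDM2, FAS, TNFRSF10B, AEN, EI24 and TRIAP1 (19.6%). A further 7 genes (22.6%) had the JQ1 libraries apart on the high side in 1 line and on the low side in another, beside 24% of all tested genes. They were PPM1D, GADD45B, BTG2, PLK2, PLK3, FDXR and DDB2. Among the members that rose with the combination, 0 of the 7 with a promoter window held the decamer printed above. Among those that fell 3 of 6 did, namely AEN, FAS and EI24. Of all 26 members with a window 7 held it, beside 8.06% of 27305 genes. A link between the decamer and the direction of change was not tested.

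The JQ1 effect on these genes also differed between lines. In a model with 1 JQ1 effect per line, taken as the mean of the effects without and with GSK2801, 13 of the 31 genes (41.9%) differed between HCC1806 and the mean of SUM159 and MDAMB231, beside 25.1% of all tested genes. In 10 of them the HCC1806 effect was the higher (14.5% of all tested genes) and in 3 the lower (10.6%). DDB2 and FDXR had the widest differences. The JQ1 effect on DDB2 was 0.57 in HCC1806, −1.07 in SUM159 and −1.47 in MDAMB231, a difference of 1.84 ± 0.31 (limma adjusted p = 0.00684). FDXR gave 1.10 in HCC1806, −0.56 in SUM159 and −0.41 in MDAMB231, a difference of 1.59 ± 0.15 (0.000971). For both genes the effect was above 0 in HCC1806 and below 0 in the other lines. PLK3 went the other way, with effects of −0.67 in HCC1806, 1.25 in SUM159 and 0.20 in MDAMB231 and a difference of −1.40 ± 0.18 (0.0027). TP53INP1 differed by 1.14 ± 0.21 (0.00929), although its effect was alike in HCC1806 and MDAMB231, and SUM159 alone was low: 3.14 in HCC1806, 0.84 in SUM159 and 3.14 in MDAMB231. SESN1 (0.87 ± 0.22), ZMAT3 (0.82 ± 0.14), TP53I3 (0.81 ± 0.24), BTG1 (0.74 ± 0.12), RRM2B (0.72 ± 0.10), MDM2 (0.54 ± 0.15) and GADD45B (0.49 ± 0.11) had the higher effect in HCC1806, and CCNG1 (−0.48 ± 0.10) and DRAM1 (−0.48 ± 0.12) the lower. For MDM2 the higher effect was a smaller fall, with −0.17 in HCC1806, −0.41 in SUM159 and −1.01 in MDAMB231. DRAM1 gave −0.74 in HCC1806, −0.46 in SUM159 and −0.055 in MDAMB231, so MDAMB231 was the line farthest from the others. GADD45B gave 0.48 in HCC1806, −0.22 in SUM159 and 0.20 in MDAMB231, with SUM159 the farthest. What this model leaves over is how far the 2 drugs depart from additivity inside a line, mixed with the noise of single cultures. Its p-values rest on no replicate cultures.

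**Figure D3:**
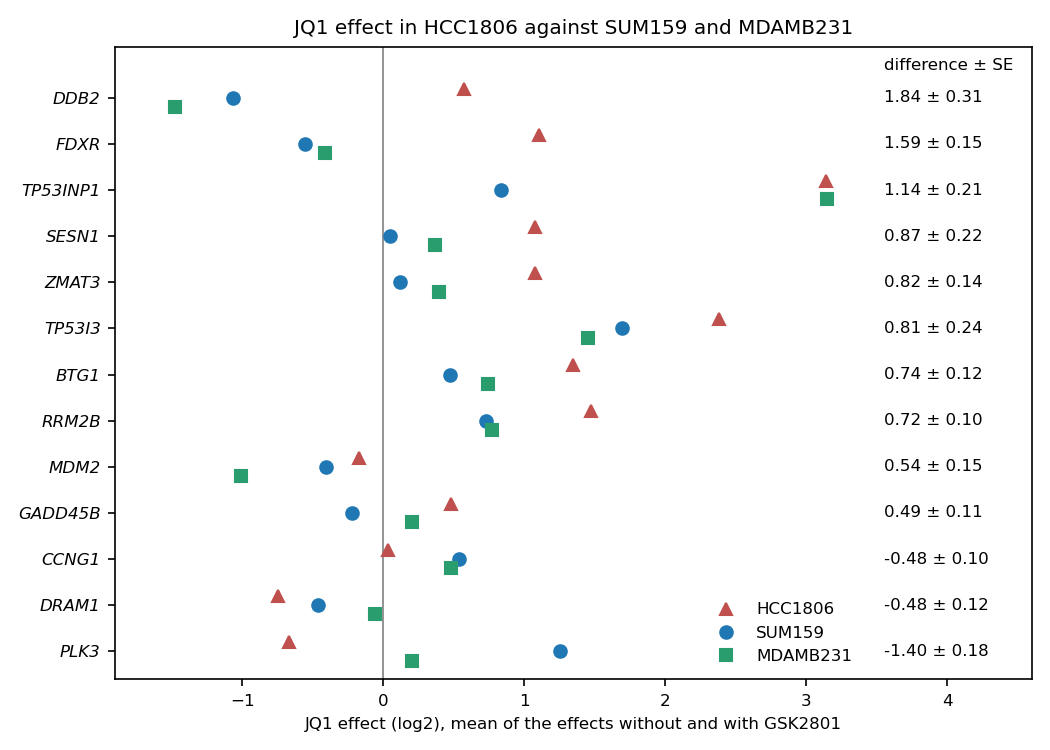
JQ1 effect (log2, mean of the effects without and with GSK2801) in HCC1806, SUM159 and MDAMB231 for the 13 genes whose effect in HCC1806 differed from the mean of the others; the numbers are that difference ± SE. DDB2 (1.84) and FDXR (1.59) lie right of 0 in HCC1806 and left of it in the other lines, and PLK3 (−1.40) lies left of 0 in HCC1806 and right of it in the others.

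A line stood apart in the level of these genes about as often as in all tested genes. In 20 of the 31 genes (64.5%) the 4 libraries of 1 line were all above or all below the 8 of the other lines, beside 62.7% of all tested genes. Counting a gene for every line that stood apart in it, SUM159 was the high line for 7 genes (22.6%, beside 12% of all tested genes) and the low line for 1 (3.23%, beside 10.6%). MDAMB231 was the low line for 7 (22.6%, beside 12.2%) and the high line for 0 (11.3% of all tested genes). HCC1806 was the low line for 7 (22.6%, beside 16.2%) and the high line for 3 (9.68%, beside 18.2%). BTG2 had the widest gap: 21.0 to 39.9 in MDAMB231, 648 to 924 in SUM159 and 432 to 643 in HCC1806. TP53I11 stood at 219.8 in SUM159, 2.74 in MDAMB231 and 33.0 in HCC1806 with JQ1 and 483, 0.67 and 27.7 with the combination, against 580.0, 4.06 and 32.8 with GSK2801 and 724, 3.01 and 33.1 with DMSO, so that it was near 0 in MDAMB231. PERP ran from 28518 to 44185 in HCC1806, 2985 to 5842 in SUM159 and 2294 to 4379 in MDAMB231. PLK2 was the gene with a low SUM159, with 834 in SUM159, 3365 in MDAMB231 and 4089 in HCC1806 with JQ1 and 776, 3019.9 and 3482 with the combination, against 440.0, 3808 and 4457 with GSK2801 and 639.9, 5693 and 5323 with DMSO. PHLDA3 was low in MDAMB231 (122 to 171) and DDB2 high in HCC1806 (903 to 1444). MDM2, MDM4 and TIGAR were among the 11 genes in which no line stood apart.

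**Figure D4:**
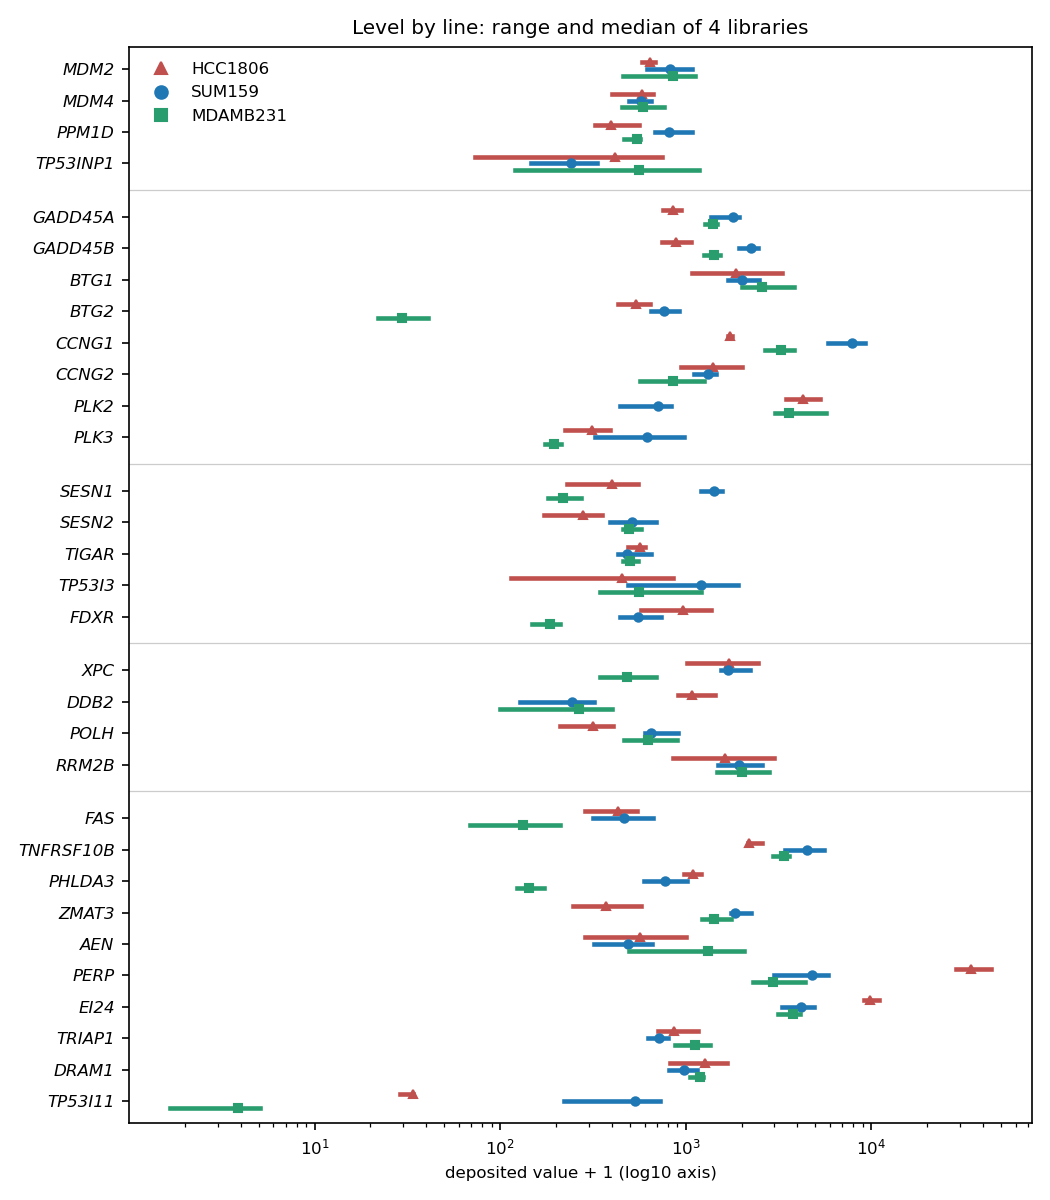
Deposited value + 1 (log10 axis) of the 31 genes in HCC1806, SUM159 and MDAMB231; a bar runs from the lowest to the highest of the 4 libraries of a line and the symbol is their median. The bars of BTG2 and TP53I11 in MDAMB231 and of PERP in HCC1806 lie apart from those of the other lines, while the 3 bars of MDM2, MDM4 and TIGAR overlap.

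A list of 40 p53 pathway genes outside the set was counted in the same fits. Of these 40 genes 36 were tested, and 1 was not analysed here. With JQ1 3 rose and 5 fell (22.2%), and with the combination 4 rose and 10 fell (38.9%), beside 22.6% and 34.8% of all tested genes. CDKN1A, the p53 target that encodes the cell cycle inhibitor p21, rose by 1.51 ± 0.21 with JQ1 and 1.67 ± 0.21 with the combination, with values of 5903 in SUM159, 6546 in MDAMB231 and 2649 in HCC1806 with JQ1 and 2816, 1552 and 1003 with DMSO; the JQ1 call was lost without HCC1806 (0.0543). GDF15, a secreted stress cytokine, was 4.33-fold lower with JQ1 (−2.12 ± 0.43), with 65.8 in SUM159, 52.0 in MDAMB231 and 7.97 in HCC1806 against 182, 197 and 70.5 with DMSO. TNFRSF10A, the second TRAIL death receptor gene, was 2.15-fold lower (−1.11 ± 0.23), beside the −0.23 ± 0.13 of TNFRSF10B that did not pass. The JQ1 calls of GDF15 and TNFRSF10A were lost without MDAMB231 (0.0799 and 0.073) or HCC1806 (0.06 for both). SFN, which encodes the cell cycle checkpoint protein 14-3-3 sigma, fell by 0.92 ± 0.18 with the combination (limma adjusted p = 0.00459), lost without SUM159 (0.0686) or MDAMB231 (0.0525). TP63, which encodes a transcription factor of epithelial cells, had 388 in SUM159, 1.83 in MDAMB231 and 4959 in HCC1806 with JQ1 and 162, 6 and 4895 with the combination, against 1011, 3.25 and 5803 with GSK2801 and 1831, 3.77 and 4737 with DMSO. TP63 was thus high in HCC1806 under every treatment, lower with JQ1 in SUM159 and near 0 in MDAMB231, and did not pass (−0.97 ± 0.67 with JQ1).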

How the data were processed

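Polyadenylated RNA of 12 libraries was measured, 1 per line and treatment. Per the labels' protocols, 2 library kits are named for the same samples, KAPA Stranded mRNA-seq and Illumina TruSeq, and whether counting used strand is not given in the sources used here. STAR 2.4, Salmon 0.60 and hg38 are named in the submitters' processing notes. Each deposited file held 28539 entries with 1 signal value each, taken as estimated counts scaled by the authors to an upper quartile of 1663.93. A step per library, the value of 1 read, divided 67.2% to 69.3% of its nonzero values into whole numbers (tolerance 0.02) and gave the 24200000 to 46800000 estimated reads. The 27 entries with date-like symbols were left out. No counting interval was computed.

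The deposited values were analysed as log2(value + 1), so changes of low genes are understated, with limma 3.58.1 in R 4.3.3 (variance trend, line as block, treatment) over the 14232 genes with a mean of at least 10. This left 6 residual and 3.02 prior degrees of freedom, and 3 and 4.48 in the model with a JQ1 effect per line. The replicate number is the cell line, and the pairing was checked with deviations from the treatment means. These correlated at 0.872 to 0.972 within a line and at −0.596 to −0.306 between lines. Subtracting the mean of the 3 lines itself pushes the values between lines below 0, so their sign says nothing about the pairing. The p-values of the treatment contrasts rest on the spread left after line and treatment are fitted. With 1 library per line and treatment, that spread mixes responses that differ between lines with noise of single cultures and libraries. No replicate cultures of a line were available to separate them. Where the response to JQ1 differs between lines, both JQ1 libraries of a line carry that difference, so p-values of contrasts with and without JQ1 may be too small. A count model had been planned for unscaled counts and was not used. The fit of the treatment contrasts was run on simulated data with the same JQ1 change in every line. That simulation held no JQ1 responses that differ between lines, so it cannot show how such responses affect the p-values. The model with a JQ1 effect per line was not simulated.

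Positions and exon overlaps are from GENCODE 29 (31 of 31 symbols matched), promoter sequences from RefSeq GRCh38.p14. Genes with values in every library were members past the threshold in a treatment contrast, their paralogs and up to 6 with the widest gap between lines. HEXIM1, CDKN1A, GDF15, TNFRSF10A, SFN and TP63 were named outside the set, and some other genes are not reported here. The members and lists were chosen with earlier results of these data known. Alternatives were pseudocounts of 0.1 and 10, no filter and a mean of at least 50, TMM (trimmed mean of M values, computed from its definition) and quantile scaling, no block, only the 6 libraries compared, no variance trend, a 1.5-fold threshold and each line left out.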

Additional observations from a re-analysis of the deposited data

Results flagged for a closer look

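The JQ1 effect of 13 of the 31 genes differed between HCC1806 and the mean of SUM159 and MDAMB231, tested with limma as a contrast of line-specific effects. HCC1806 differs from the other lines in medium and JQ1 dose as well, and the 3 cannot be told apart. The difference (log2) was 1.84 for DDB2, 1.59 for FDXR, 1.14 for TP53INP1, 0.87 for SESN1, 0.82 for ZMAT3, 0.81 for TP53I3, 0.74 for BTG1, 0.72 for RRM2B, 0.54 for MDM2 and 0.49 for GADD45B, higher in HCC1806. It was −1.40 for PLK3, −0.48 for CCNG1 and −0.48 for DRAM1, lower in HCC1806. The deposited values behind the widest of these were as follows. FDXR had 480.0 in SUM159, 164 in MDAMB231 and 1269.9 in HCC1806 with JQ1 and 443, 147 and 1376 with the combination, against 626, 206 and 661 with GSK2801 and 738, 209 and 570.4 with DMSO. PLK3 had 808 in SUM159, 211 in MDAMB231 and 222 in HCC1806 with JQ1 and 975, 202 and 256 with the combination, against 429, 185 and 370.2 with GSK2801 and 323, 174 and 389.9 with DMSO. In both genes the JQ1 libraries of HCC1806 lay on one side of its other libraries and those of SUM159 on the opposite side. PLK3 exons overlap those of TCTEX1D4 on the other strand.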

How the results depend on the processing

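For the genes called in a contrast, 403 alternative fits kept direction and call, 169 kept the direction but lost the call, and none reversed. Among genes not called, JQ1 calls were gained by CCNG1 in 4 fits (adjusted p = 0.0395 to 0.0466), SESN1 under TMM (0.0395) and PLK2 without SUM159 (0.0487). The combination gained PLK2 without SUM159 and PPM1D and DRAM1 without MDAMB231. The combination against GSK2801 gained PPM1D and DRAM1 without MDAMB231 (0.023 and 0.0472), CCNG1 without HCC1806 (0.044) and EI24 under quantile normalization (0.0422). The line difference gained BTG2 in 3 fits, PERP in 2 and XPC in 1. Uncalled changes reversed in 8 fits with JQ1 (6 genes), 5 with the combination (5 genes) and 8 in the combination against GSK2801 (7 genes), with a lowest adjusted p of 0.053 (FDXR, combination, without HCC1806). Without the replicate block, which ignores the pairing by line, 0 of the 31 genes passed with JQ1, 0 with the combination and 0 in the combination against GSK2801, with 6 at an unadjusted p under 0.05 in each, and 0, 41 and 3 of all genes. With only the 6 libraries compared the counts were 4, 5 and 1, and 755, 1012 and 300 of all genes. A threshold of 1.5-fold left 0, 3 and 2, and 120, 733 and 416 of all genes. Leaving out 1 line gave 3 to 8, 9 to 11 and 6 to 10 of the 31 genes, and 681 to 1773, 2886 to 3255 and 1939 to 2522 of all genes. With no variance trend the line difference was called for 7 of the 31 genes and 2156 of all genes. MDM2 and TP53I3 also lost that call under TMM (adjusted p = 0.0631 and 0.0563). The combination calls of MDM2 and MDM4 were lost with quantile normalization (0.0559 and 0.0989). The cause of these losses was not tested. Scaling moved the lower share of all called genes with JQ1 to 47.8% under TMM and 45.9% under quantile normalization, beside 58% as deposited. In the same order the shares were 50.4%, 48.3% and 56.9% with the combination, 51.4%, 47.5% and 59.2% in the combination against GSK2801, and 51.7%, 49.1% and 42.4% for the line difference. Of the 31 genes, 9 rose and 3 fell with JQ1 under TMM, and the line difference was higher in 8 and lower in 4.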
